A study of Mus musculus with 6 samples.

Results

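Tight junctions seal the space between neighbouring hepatocytes, and in liver they close off the bile canaliculus from the blood side. The 9 genes described here encode 5 claudins (Cldn1, Cldn2, Cldn3, Cldn12 and Cldn14), the membrane proteins occludin (Ocln) and junctional adhesion molecule A (F11r), and the cytoplasmic scaffolds zonula occludens-1 (Tjp1) and cingulin (Cgn). They were chosen by symbol, as proteins that seal bile canaliculi, with earlier results of these same libraries known, among them that Cldn1 was one of the genes lower after dosing. All 9 were found among the 55536 genes of the files, and all 9 were among the 13299 genes with enough reads to be tested. Because the choice was made with the contrast between the groups in view, the fold changes of these 9 genes are a description and no test of them is read as support.

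The libraries came from livers of male C57BL/6 mice, an inbred laboratory strain, and the labels name no engineered allele. Dosing began at 6 weeks of age and lasted 8 weeks with 2 oral doses a week. One group of 3 libraries received polystyrene microplastic particles (PS-MP) at 0.4 mg per day and the other group of 3 received water. The labels do not give the size of the particles and do not say whether a library is 1 mouse or a pool. A p-value here therefore reflects only how far the 6 libraries spread, which may be technical.

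Claudins are small membrane proteins that pair across the gap between cells, and the mix of claudins in a junction sets which ions and solutes can pass. Some are known as barrier formers and others as pores. Occludin lies in the same strands, and junctional adhesion molecules are found at the same junctions. ZO-1 and cingulin tie the strands to the actin and myosin belt around the canaliculus. In liver this seal keeps bile acids out of the blood, and people who lack claudin-1 develop a bile duct disease with skin scaling.

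Levels are in FPKM, read counts scaled by exon length and library size, which can be compared between genes. The libraries held 13082210 to 16948343 reads. Reads per library ran from 44 to 70 for Cldn14 and from 304 to 1553 for the other 8 genes, and the 95% Poisson intervals given below cover counting error only. In PS-MP replicate 3, 8 forebrain neuron markers reached a summed level of 34.5 FPKM. Their sum was 5.57 in PS-MP replicate 1, 2.99 in PS-MP replicate 2 and 1.61 to 1.75 over the water libraries, where Syt1 made up most of it. Snap25 had 61, 19 and 860 reads in PS-MP replicates 1, 2 and 3 and 1, 2 and 0 in water. Camk2a had 58, 19 and 670 in PS-MP and 1, 3 and 0 in water. Values are also given without PS-MP replicate 3 where it matters, which leaves the smaller signal of the other PS-MP libraries in place. The part of this signal in the claudin values was not tested. The 8 hepatocyte markers were present in all 6 libraries, at a summed 42555 to 45426 FPKM in water and 35526 to 43099 in PS-MP. In bulk liver, fewer cells of a type and less RNA per cell cannot be told apart.

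Cldn1, the barrier-forming claudin, was lower in every PS-MP library than in any water library (ENSMUSG00000022512, GRCm38 chromosome 16, 26356642 to 26371841, minus strand, 4 exons, all of them coding). Its level was 16.2, 15.2 and 18.4 FPKM in water replicates 1, 2 and 3. In PS-MP replicates 1, 2 and 3 it was 10.1, 8.62 and 8.06 FPKM. The lowest water library still lay well above the highest PS-MP library, and the counting intervals of those 2 libraries did not meet (14.4 to 16.1 FPKM against 9.31 to 10.9). The means were 16.6 ± 1.64 and 8.92 ± 1.04 FPKM (SD, n = 3 each), a log2 fold change of -0.86 with a standard error of 0.10, or 0.551 times the water level. No other annotated gene overlaps Cldn1.

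Cldn3, also counted among the barrier formers, had the same direction at a smaller size (ENSMUSG00000070473, chromosome 5, 134986214 to 134987472, plus strand, a single-exon gene). It was at 26.4, 25.9 and 22.9 FPKM in the water libraries. It was at 18.5, 21.4 and 19.8 FPKM in the PS-MP libraries. The groups did not overlap, but the gap between water replicate 3 and PS-MP replicate 2 was small against the counting intervals, which did meet (20.7 to 25.2 and 19.5 to 23.6 FPKM). The log2 fold change was -0.33 (SE 0.08), and Cldn3 did not pass over all genes.

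Cldn2, a pore for small cations and water that is known to be strongest in hepatocytes near the central vein, was more variable after dosing (ENSMUSG00000047230, chromosome X, 139800828 to 139811386, plus strand). It had 17.5, 15.9 and 16.0 FPKM in water. It had 13.3, 16.2 and 11.7 FPKM in PS-MP. PS-MP replicate 2 lay inside the water range and the other PS-MP libraries below it, so the groups overlapped. The log2 fold change was -0.27 (SE 0.12), and it was -0.16 without PS-MP replicate 3. The summed level of 10 pericentral markers, among them Glul and Cyp2e1, was 5829 to 6421 FPKM in water and 5711 to 6656 in PS-MP, most of it Cyp2e1. The groups did not overlap for 3 of the 10, beside 19.2% of all genes tested. Of these, Lgr5 was lower (log2 fold change -0.52), and Slc1a2 (0.43) and Axin2 (0.29) were higher. An unadjusted p under 0.05 was found for 2 of the 10 (1 higher and 1 lower), beside 13.1% of all genes tested. By limma-trend or limma-voom 0 of the 10 were called. Whether zonation bears on Cldn2 was not tested.

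Cldn12 and Cldn14 overlapped between the groups. Cldn12, a claudin that lacks the C-terminal motif by which most claudins bind ZO-1, held between 20.7 and 21.7 FPKM in water and between 19.3 and 20.97 in PS-MP (ENSMUSG00000046798, chromosome 5, 5489537 to 5514958), with a log2 fold change of -0.06 (SE 0.06), and -0.02 without PS-MP replicate 3. Its spread was the smallest of the 9 genes relative to its level in water after that of Cldn14. Cldn14, a claudin expressed in liver, kidney and the inner ear and mutated in hereditary deafness, was the lowest of the members (ENSMUSG00000047109, chromosome 16, 93919031 to 94008837). It was at 1.61, 1.58 and 1.55 FPKM in water and 1.97, 2.06 and 1.39 FPKM in PS-MP. With 44 reads in PS-MP replicate 3, the counting interval there ran from 1.007 to 1.86 FPKM and held all 3 water values. The log2 fold change of Cldn14 was 0.14 (SE 0.13), and 0.28 without PS-MP replicate 3.

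**Figure D1:**
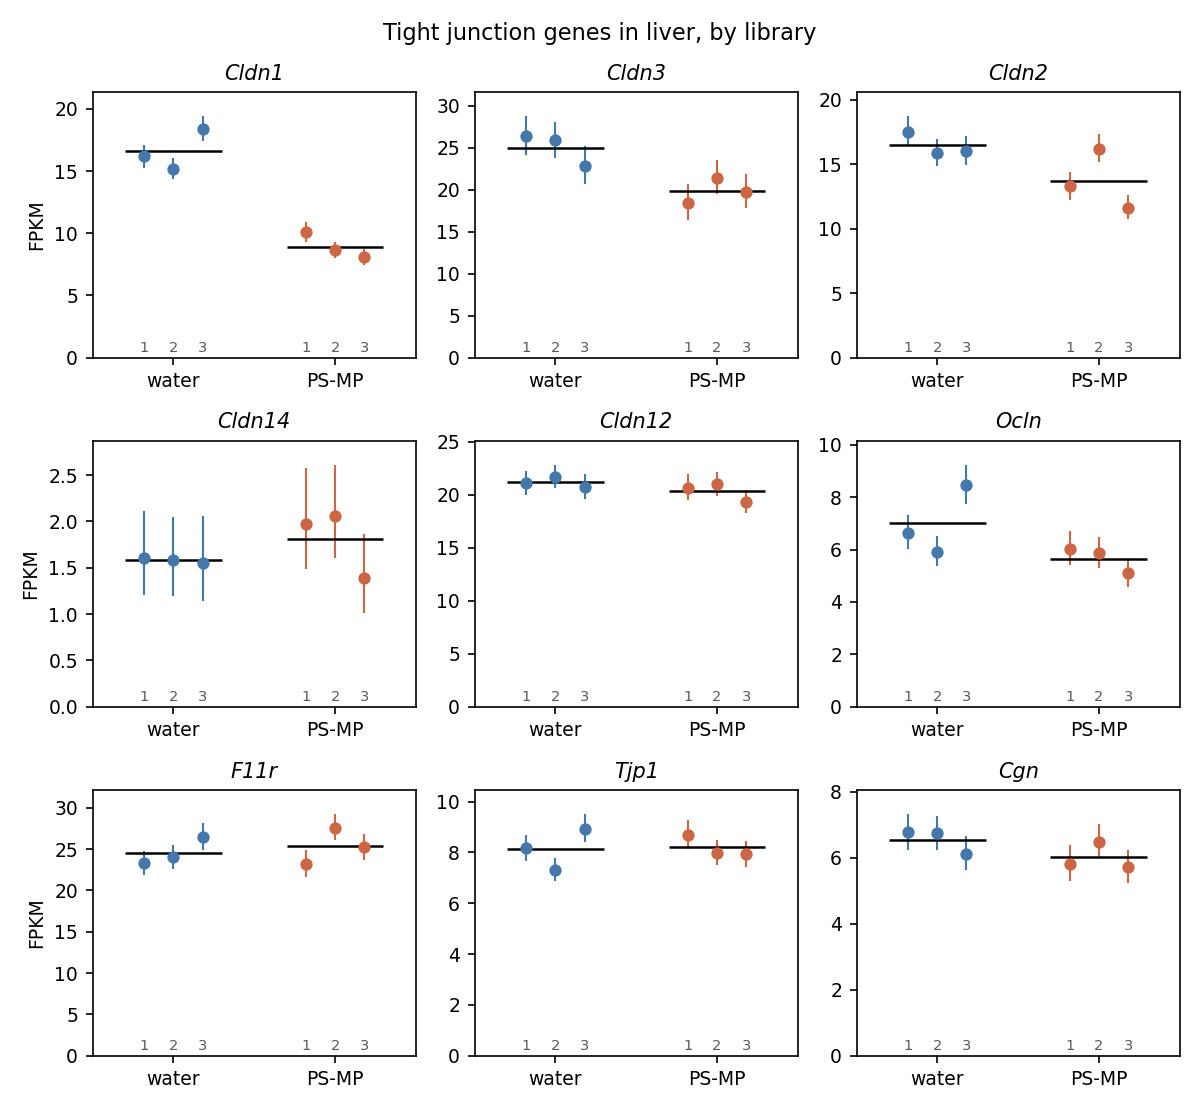
FPKM of the 9 genes (vertical axes from 0) in water (blue) and PS-MP (orange) libraries; small digits are replicate numbers, points single libraries, thin lines 95% Poisson counting intervals and black lines group means. Cldn1 lies between 15.2 and 18.4 FPKM in water and between 8.06 and 10.1 in PS-MP. The groups overlap for 7 of the 9 genes and are apart for 22.2%, beside 19.2% of all genes tested.

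Of the other membrane proteins, occludin had lower PS-MP values that still met the water range. Ocln (ENSMUSG00000021638, chromosome 13, 100496507 to 100552718) was at 6.64, 5.93 and 8.47 FPKM in water. It was at 6.03, 5.86 and 5.10 FPKM in PS-MP. Water replicate 3 stood above the other 5 libraries, and without it the log2 fold change went from -0.28 (SE 0.13) to -0.14. F11r, an immunoglobulin-like adhesion protein also found on endothelium and blood cells, was at 23.3, 23.996 and 26.5 FPKM in water and at 23.2, 27.6 and 25.2 in PS-MP (ENSMUSG00000038235, chromosome 1, 171437535 to 171464603). The F11r ranges lay almost on top of each other, with a log2 fold change of 0.04 (SE 0.09).

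The scaffolds overlapped as well. Tjp1, which holds claudins by their tails and links them to actin, was at 8.16, 7.31 and 8.94 FPKM in water and 8.69, 7.98 and 7.94 FPKM in PS-MP (ENSMUSG00000030516, chromosome 7, 65296165 to 65527781). All PS-MP values of Tjp1 lay within the water range, and the log2 fold change was 0.01 (SE 0.09). Cgn, which binds ZO-1 and myosin, was at 6.77, 6.74 and 6.13 FPKM in water and 5.83, 6.48 and 5.73 FPKM in PS-MP, with a log2 fold change of -0.11 (SE 0.08; ENSMUSG00000068876, chromosome 3, 94760069 to 94786492).

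Across the 9 genes, 1 had an adjusted p under 0.05 with limma-trend (Cldn1, lower), against 0.489% of all genes tested in either direction and 0.248% in the lower direction. With limma-voom on the recovered reads the count was also 1 of 9, against 1.0% of all genes. Ranges did not overlap for 2 of 9 (Cldn1 and Cldn3, both lower), which is 22.2% of the members against 19.2% of all genes tested in either direction and 8.12% in the lower direction. The choice of genes used this contrast, so nothing is read from these shares. The log2 fold change was negative for 6 of the 9 and positive for 3, with a median of -0.11, against a median of 0.01 over all genes tested.

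The Cldn1 call was lost when most single libraries were left out, while its size moved little. Leaving out 1 library at a time gave log2 fold changes from -0.95 to -0.79, and the call held without PS-MP replicate 1. Leaving out a water library ended the call each time, with a limma adjusted p of 0.128 for replicate 1, 0.0506 for replicate 2 and 0.143 for replicate 3. So did leaving out PS-MP replicate 2 (limma adjusted p = 0.0891) and PS-MP replicate 3 (limma adjusted p = 0.0576). With all 6 libraries the limma-trend adjusted p was 0.0304. The calls over all genes also fell with 1 library left out, from 65 to between 0 (without water replicate 3) and 36 (without PS-MP replicate 1). The lost calls are therefore not particular to Cldn1.

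**Figure D2:**
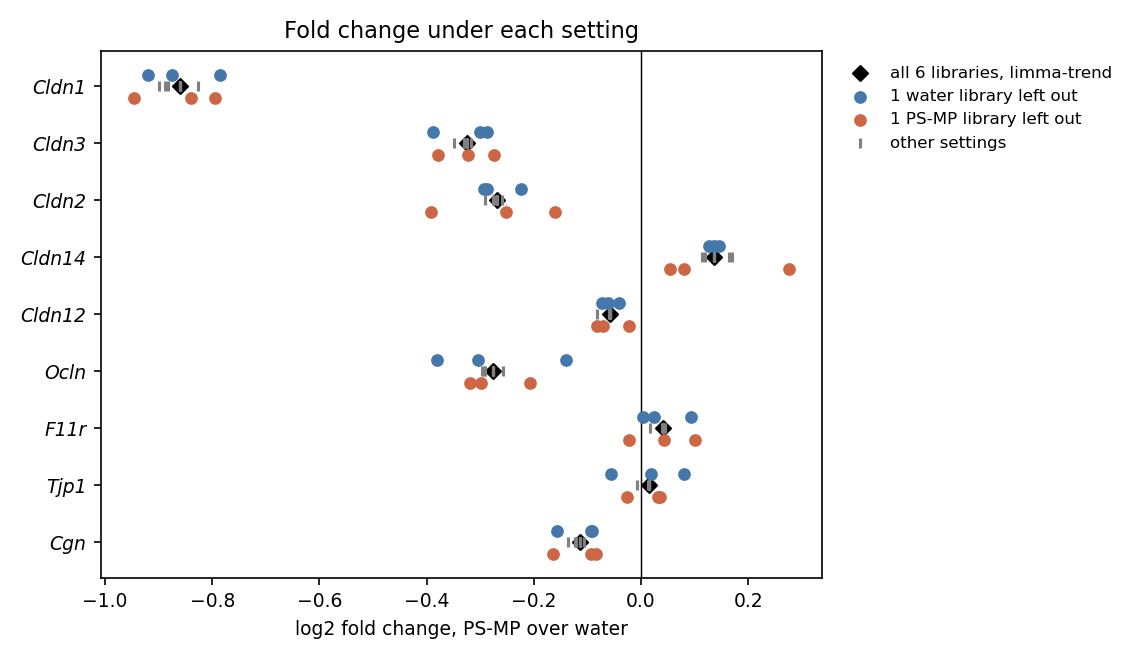
Log2 fold change (horizontal axis, PS-MP over water) of each gene with all 6 libraries (black diamonds), with 1 water library (blue) or 1 PS-MP library (orange) left out, and under the other settings (grey ticks). Cldn1 stays between -0.95 and -0.79, and the points of F11r and Tjp1 lie on both sides of 0.

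By group means, 7 of the 9 genes took another place in the order of levels in PS-MP than in water, with Cldn3 going from the highest place to the third. In water, Cldn3 (25.03 FPKM) and F11r (24.6) were highest with overlapping ranges, followed by Cldn12 (21.2). Cldn1 (16.6) and Cldn2 (16.5) came next and could not be separated, then, without overlap, Tjp1 (8.14), Ocln (7.01) and Cgn (6.55). Ocln overlapped Tjp1 and Cgn overlapped Ocln, and Cldn14 (1.58) lay well below. In PS-MP, F11r (25.3) stood above Cldn12 (20.3) and Cldn3 (19.9), which overlapped. Cldn2 (13.7) now lay above Cldn1 (8.92) without overlap, and the Cldn1 range met that of Tjp1 (8.20). Cldn1 was thus at the level of Cldn2 in water and at the level of the ZO-1 transcript in PS-MP. The ratio of Cldn1 to Cldn2 within a library was 0.922, 0.954 and 1.15 in water and 0.758, 0.531 and 0.692 in PS-MP.

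The claudin transcripts as a whole were fewer in the PS-MP libraries. Summed over the 33 annotated claudin genes, the mean level was 83.9 ± 1.96 FPKM for water (SD, n = 3) and 67.8 ± 4.55 for PS-MP (SD, n = 3), with ranges of 82.5 to 86.2 and 63.4 to 72.5. The 5 claudins described above made up 95.7% to 97.2% of that sum in water and 94.9% to 95.6% in PS-MP. Of the difference of -16.1 FPKM between the means, Cldn1 accounted for 47.6%, Cldn3 for 32.0% and Cldn2 for 17.2%. The share of Cldn1 in the claudin sum was 19.8 ± 2.05% in water and 13.2 ± 1.55% in PS-MP. The share of Cldn12, whose own level overlapped between the groups, was 25.2 ± 0.94% and 30.0 ± 0.90%. The shares of Cldn2 and Cldn3 overlapped between the groups.

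**Figure D3:**
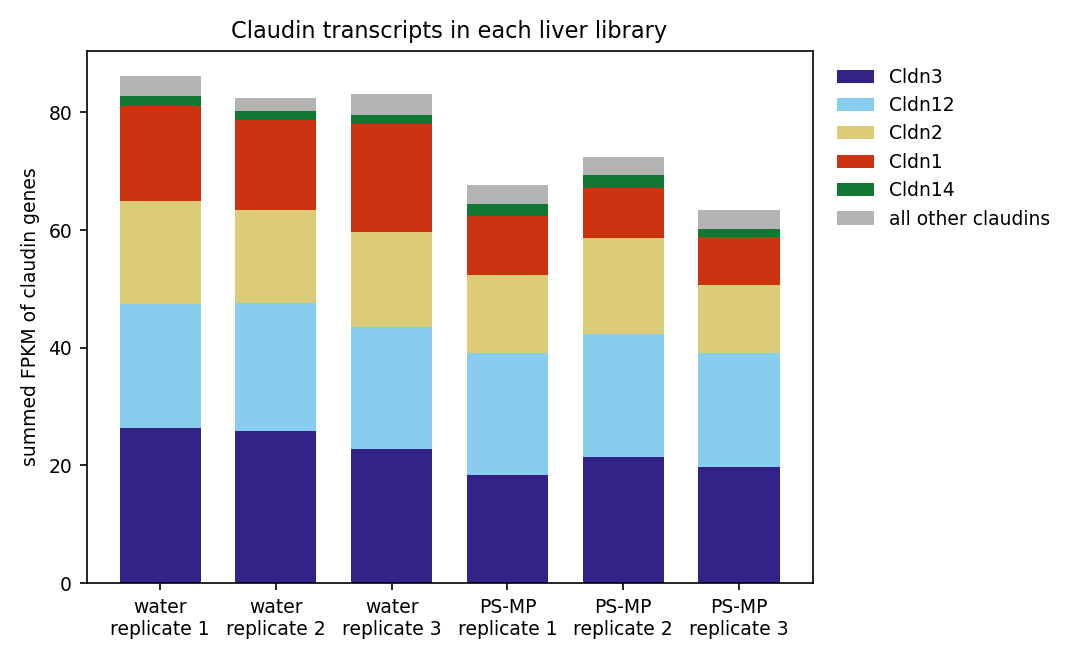
Stacked bars of the FPKM of claudin genes in each of the 6 libraries (vertical axis, FPKM from 0); grey is the sum of the 28 claudins that are not among the 5 named ones. The bars reach 82.5 to 86.2 in water and 63.4 to 72.5 in PS-MP, and the Cldn1 segment is visibly thinner in all 3 PS-MP libraries.

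Most other claudins were near or at 0 in these livers. Besides the 5, only Cldn5, the claudin of endothelial junctions, had enough reads to be tested. It was at 2.23, 1.96 and 2.29 FPKM in water and 2.32, 2.08 and 1.75 in PS-MP, with a log2 fold change of -0.06 (SE 0.12, limma adjusted p = 0.854). A further 11 claudins had some reads but never more than 0.698 FPKM in a library, among them Cldn4 and Cldn7, which mark bile duct cells. The remaining 16 had no read in any library, which allows at most 0.00740 to 0.0521 FPKM depending on gene length (3 reads over all 90594140). Neighbours of expressed claudins were among the low or absent ones. Cldn4 lies 39279 bases from Cldn3 and had 6 reads in all, and Cldn16 lies 91293 bases from Cldn1 and had 0.

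**Figure D4:**
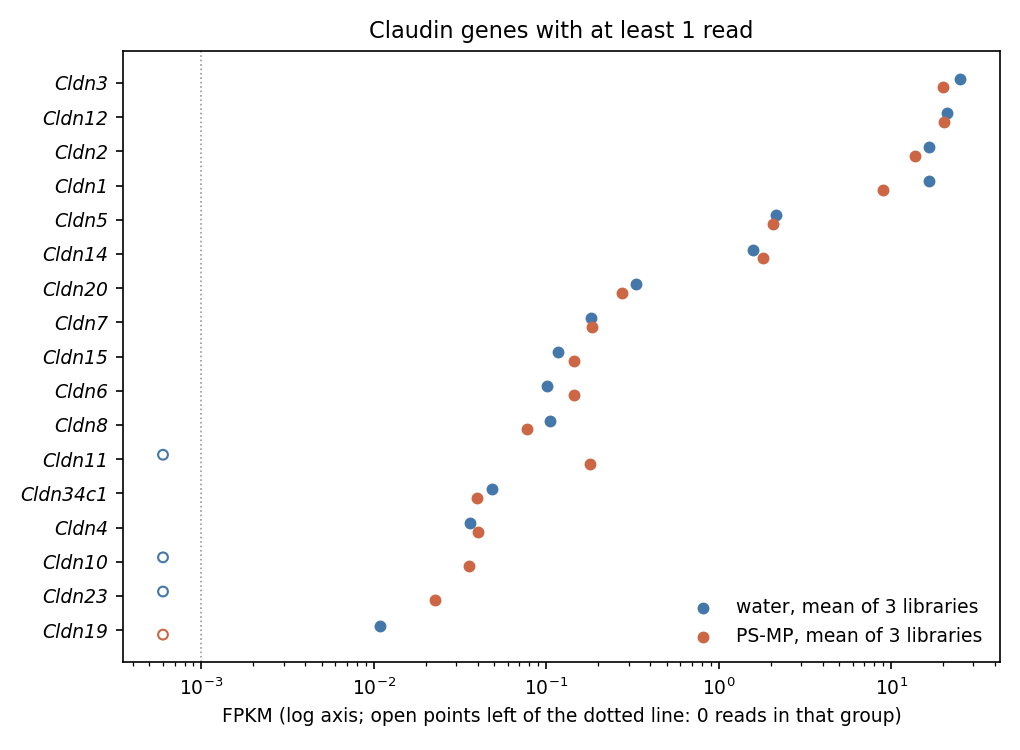
Mean FPKM (log axis) of the 17 claudin genes with at least 1 read in water (blue) and PS-MP (orange), with open points for groups of 3 libraries with 0 reads. Cldn3, Cldn12, Cldn2 and Cldn1 lie near or above 10 FPKM, Cldn5 and Cldn14 near 2, and the other 11 below 1.

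The promoters of the 3 claudins with the most negative fold changes are shown because these genes made up most of the difference in the claudin sum. RefSeq start sites on GRCm38.p6 were matched for 9 of 9 genes. Cldn12 and Cldn14 have 3 listed start sites each and Ocln has 2, and the one nearest the GENCODE 5′ end was used. The only start site listed for Tjp1 lies 156537 bases from that end. Each window runs from 250 bases before the start site to 50 after it, 5′ to 3′ on the gene's strand. Capitals mark matches to 5 motifs, each searched on both strands. The GC box was searched as GGGCGG. The E-box of the kind bound by Snail factors was searched as CAGGTG. The E-box bound by clock factors was searched as CACGTG. The D-box, another element of clock output genes, was searched as TTATGTAA. The TATA box, which positions the polymerase, was searched as TATAAA. The motifs did not overlap each other in these windows. The windows are chr16:26371790-26372089 (minus strand) for Cldn1, chrX:139800558-139800857 (plus) for Cldn2 and chr5:134985964-134986263 (plus) for Cldn3.
Cldn1: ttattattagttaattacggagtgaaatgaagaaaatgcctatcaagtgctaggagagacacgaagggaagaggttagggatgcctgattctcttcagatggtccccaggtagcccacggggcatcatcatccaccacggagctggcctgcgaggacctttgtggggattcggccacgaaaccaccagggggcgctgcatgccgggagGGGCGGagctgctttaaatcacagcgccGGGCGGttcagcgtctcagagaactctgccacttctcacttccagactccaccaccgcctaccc
Cldn2: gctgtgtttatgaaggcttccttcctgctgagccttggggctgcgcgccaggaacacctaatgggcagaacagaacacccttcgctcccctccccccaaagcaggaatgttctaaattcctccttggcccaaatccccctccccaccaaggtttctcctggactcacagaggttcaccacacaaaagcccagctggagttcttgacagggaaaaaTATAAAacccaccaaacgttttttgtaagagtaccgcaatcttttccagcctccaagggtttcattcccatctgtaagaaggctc
Cldn3: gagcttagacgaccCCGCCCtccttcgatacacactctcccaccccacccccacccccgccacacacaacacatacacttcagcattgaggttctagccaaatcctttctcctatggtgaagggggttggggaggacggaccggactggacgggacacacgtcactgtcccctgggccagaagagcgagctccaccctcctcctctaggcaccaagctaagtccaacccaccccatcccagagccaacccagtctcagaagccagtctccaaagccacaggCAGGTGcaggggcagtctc

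The Cldn1 window held 2 GC boxes, starting at -42 and -14 from the start site. The Cldn2 window held a TATA box at -35 and no GC box. The Cldn3 window held a GC box on the opposite strand at -236 and a Snail-type E-box at 31. Of 32851 RefSeq promoter windows of this length, 35.7% hold the GC box, 20.2% the Snail-type E-box, 13.6% the TATA box, 7.15% the clock-type E-box and 0.938% the D-box. Among the 9 genes, the GC box was found for 6, the clock-type E-box only for Cgn and the D-box for none. The Snail-type E-box was found for Cldn3, Ocln and F11r. The GC content was 56.0% for Cldn1, 51.3% for Cldn2 and 60.7% for Cldn3, against a median of 52.7% over all windows. It was 70.3% for Cgn, 65.3% for Tjp1, 64.0% for Ocln and 60.3% for F11r, which also held GC boxes. Cldn12 (45.3%) and Cldn14 (48.0%) held none. Whether the members hold more of any motif than other genes of like GC content was not tested. A match is a string of letters and shows no binding.

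The rest of the junction pathway was taken from 8 lists of 126 further genes, of which 99 were tested. With limma-trend 0 of the 99 were called. An unadjusted p under 0.05 was found for 14 (14.1%, against 13.1% of all genes tested), and limma-voom called 2 (Ildr2 and Slc9a3r1, both higher). The median log2 fold change over the 99 was -0.02, beside 0.01 over all genes tested. Groups did not overlap for 17.2% of them, beside 19.2% of all genes.

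Among 9 tested tight junction membrane proteins, Ildr2, a member of the angulin family of tricellular junctions, had the smallest p. It was at 3.66, 3.90 and 3.16 FPKM in water and 5.84, 5.63 and 5.34 in PS-MP. The groups were well apart, with a log2 fold change of 0.59 (SE 0.10) and a limma-trend adjusted p of 0.058, and it passed with limma-voom (0.0171) and with robust empirical Bayes (0.0425). Cxadr, an adhesion protein of tight junctions, had a log2 fold change of -0.17, which was -0.01 without PS-MP replicate 3 and -0.07 without water replicate 3. Of this list 4 fold changes were positive and 5 negative.

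Among 25 tested scaffolds and polarity proteins, 0 were called by limma-trend or limma-voom. An unadjusted p under 0.05 was found for 3 (2 higher and 1 lower), or 12.0% beside 13.1% of all genes. Mpp5, which encodes the polarity scaffold PALS1, had a log2 fold change of 0.32 (SE 0.09, limma adjusted p = 0.202). The list's median was -0.02, with 10 positive and 15 negative fold changes.

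Adherens junctions and desmosomes showed no call. Of 12 adherens junction genes, Plekha7, a protein of the apical junction belt, had a log2 fold change of 0.44 from 0.561 FPKM in water (limma adjusted p = 0.165), and Jup, which encodes plakoglobin, had 0.16. Of 9 gap junction and desmosome genes, the desmosome members Dsg2 (log2 fold change -0.13) and Dsp (-0.24) had the smallest p, and none passed an unadjusted p of 0.05. Without PS-MP replicate 3 these values were -0.08 for Dsg2 and -0.05 for Dsp. The list medians were 0.02 and -0.06.

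On the canalicular membrane, Slc9a3r1, which encodes the NHERF1 scaffold that holds transporters under the apical membrane, was at 36.5, 36.0 and 27.9 FPKM in water. It was at 50.03, 46.3 and 53.7 FPKM in PS-MP. Every PS-MP library was above every water library, with a log2 fold change of 0.58 (SE 0.11). Its adjusted p was 0.0967 with limma-trend and 0.0432 with limma-voom. Abcg5, a subunit of the sterol exporter into bile, had 0.37 (limma adjusted p = 0.187). Of the 19 genes in this list 9 fold changes were positive and 10 negative, with a median of -0.01. An unadjusted p under 0.05 was found for 5 of the 19 (4 higher and 1 lower), or 26.3% beside 13.1% of all genes, and the groups did not overlap for 36.8% (3 higher and 4 lower) beside 19.2%.

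Of 12 tested transcription regulators, 3 had an unadjusted p under 0.05 (1 higher and 2 lower), beside 13.1% of all genes tested. The groups did not overlap for 3 of the 12, all lower, beside 19.2% of all genes tested and 8.12% in the lower direction. Of the 12 fold changes, 6 were positive and 6 negative. Cebpa, a hepatocyte factor, had a log2 fold change of 0.35 (limma adjusted p = 0.237). Of 12 actomyosin regulators, the smooth muscle light chain Myl9 had a log2 fold change of -0.91 with a standard error of 0.29, at 0.609 to 1.36 FPKM in water and 0.115 to 0.724 in PS-MP (2 to 23 reads a library), and the kinase Rock2 had 0.16. Neither list held a call.

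**Figure D5:**
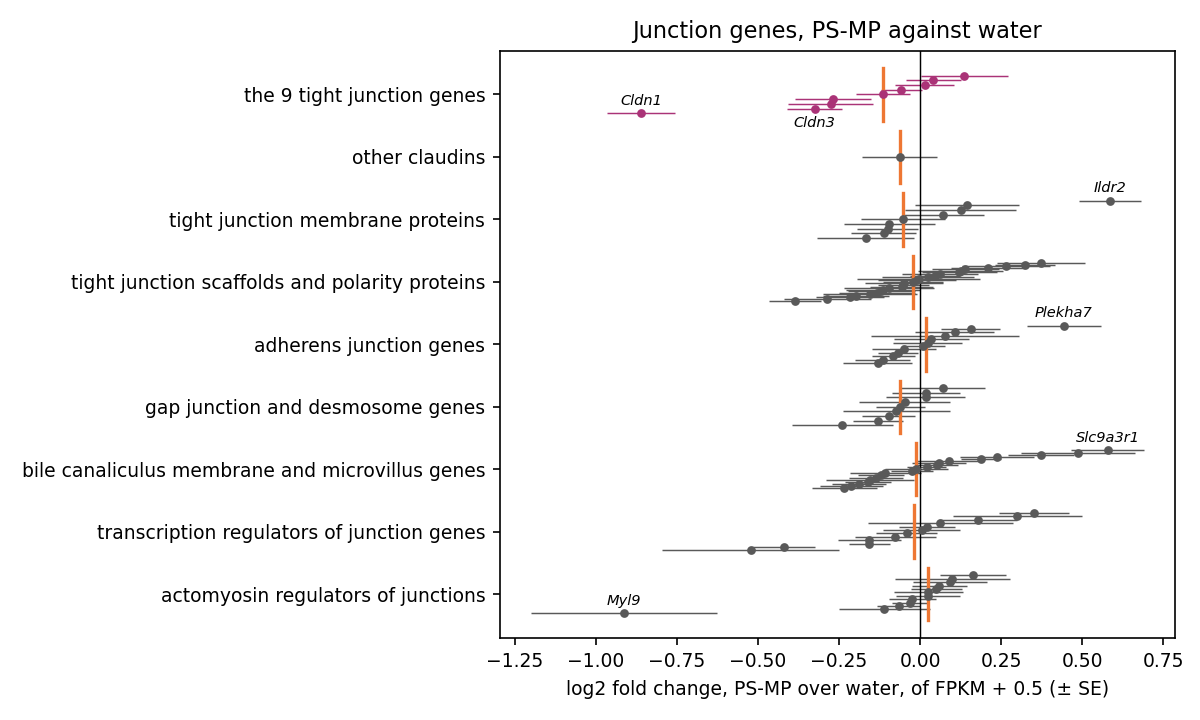
Log2 fold change (horizontal axis, PS-MP over water, FPKM + 0.5) of each tested gene with its standard error, by list; orange bars are list medians and the 9 tight junction genes are in purple. Cldn1 at -0.86 is the lowest of the 9, and the medians of the 8 other lists lie between -0.06 and 0.03.

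The genes whose levels followed Cldn1 most closely over the 6 libraries were Wdyhv1, Nedd4l and Elovl5, with Pearson r of 0.9998, 0.997 and 0.996 on the log scale among 9313 genes at 1 FPKM or more. Wdyhv1 encodes an N-terminal glutamine amidase, Nedd4l a ubiquitin ligase and Elovl5 an elongase of polyunsaturated fatty acids. The most opposite were Fam102a (-0.992), Nrbp2 (-0.991) and Syne3 (-0.991). The 6 points fall into the 2 groups for Cldn1, so these values mainly restate which genes differ between the groups. Elovl5 was itself called lower and Syne3 higher over all genes. Of the other members, Ocln was nearest to Cldn1 (r = 0.81), followed by Cldn3 (0.75) and Cldn2 (0.68), and F11r was at -0.23. Many other genes were nearer, as among the 9313 Ocln ranked 530, Cldn3 784, Cldn2 1089 and F11r 5637.

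Markers of other cell types were read beside Cldn1. Bile duct cells carry claudins, and the 12 cholangiocyte markers summed to 36.4 to 51.9 FPKM in water and 38.5 to 48.1 in PS-MP. Of these 12, 6 were tested and 0 were called by limma-trend or limma-voom. An unadjusted p under 0.05 was found for 1 of the 6, lower (16.7%, beside 13.1% of all genes tested). No marker was at 0 in every library. Aqp1 made up most of each sum, at 19.2 to 29.3 FPKM in water and 21.2 to 28.5 in PS-MP. Spp1 was at 7.98 to 11.7 FPKM in water and 8.64 to 12.2 in PS-MP. Krt19 was lower, at 0.127 to 0.557 FPKM in water and 0.206 to 0.372 in PS-MP. Whether bile duct cells bear on Cldn1 was not tested. The 10 endothelial markers, which include Cldn5 and Esam, summed to 49.5 to 60.5 FPKM in water and 50.6 to 59.0 in PS-MP. The 10 periportal markers summed to 4417 to 5204 FPKM in water and 5481 to 5514 in PS-MP, without overlap. Of the 10, 4 had an unadjusted p under 0.05, all higher (40.0%, beside 13.1% of all genes tested). The groups did not overlap for 40.0% of them, all higher, beside 19.2% of all genes. With limma-trend or limma-voom 0 were called. The part of hepatocyte zonation in the claudin values was not tested. Brown fat markers summed to 107 to 191 FPKM in water and 63.1 to 88.1 in PS-MP, but Elovl3, which liver also expresses, made up most of each sum. The other 5 markers summed to 28, 0.448 and 8.28 FPKM in water replicates 1, 2 and 3 and to 0, 0.0135 and 11.1 in PS-MP replicates 1, 2 and 3, so they overlapped between the groups. Ucp1, the defining marker, had no read in water replicate 2 or PS-MP replicates 1 and 2. Their part in the claudin values was not tested either.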

How the data were processed

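RNA from 6 mouse liver libraries was sequenced. The authors deposited 1 FPKM value per gene and library. Per the submitters' processing notes, Trimmomatic 0.38, HISAT2 2.1.0, featureCounts 1.6.0 and DESeq2 1.22.1 were used, and the build named there is GRCh38, although all 55536 identifiers are those of GENCODE M21 for mouse (GRCm38). That annotation supplied symbols and coordinates. How strand was handled in counting is not stated in the labels or headers. FPKM times merged exon length gave whole reads for 100.0% of values above 0 (tolerance 0.01 reads), and the totals matched those implied by the scaling. Of 2 gene models sharing a symbol (Igsf5, Myl12b), the one with reads was used.

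Genes with at least 0.664 CPM in 3 libraries and 15 reads in all were tested with limma-trend (limma 3.58.1, R 4.3.3) on log2(FPKM + 0.5), with group as the only term and Benjamini-Hochberg adjustment over all 13299 genes, at a threshold of 0.05. A fold change on this scale understates that of low genes. Alternatives were pseudocounts of 0.1 and 1, no low-value filter, a mean of at least 1 FPKM, median-of-ratios scaling, limma-voom on recovered reads, robust empirical Bayes, a replicate block and leaving out each library. Promoter sequences came from RefSeq on GRCm38.p6. The fit was tested on simulated data. Members and lists were chosen with earlier results of these data known. Genes named are the members, the 2 genes of smallest p in each list plus any called, and the 3 most and 3 least like Cldn1, except that some results under this rule are not reported here; marker genes, Cldn4, Cldn7, Cldn16 and Cldn11 were named after their values were seen.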

Additional observations from a re-analysis of the deposited data

Results flagged for a closer look

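Cldn11, the claudin of oligodendrocyte myelin, had 15 reads (0.538 FPKM) in PS-MP replicate 3 and 0 in the other 5 libraries. It had too few reads to be tested, and it stands out as a signal in 1 library that is absent from all 3 water libraries. In the same library the 8 oligodendrocyte and astrocyte markers, Cldn11 among them, summed to 10.7 FPKM, against 2.44 to 3.52 in water and 4.54 and 2.19 in PS-MP replicates 1 and 2. Among these markers Mobp and Mog also had no read in water. Groups of 3 libraries were too small for a search for single outlying libraries.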

How the results depend on the processing

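The count of 65 called genes became 0 with no filter on low values (2064 with an unadjusted p under 0.05), 133 with limma-voom and 23 with the replicate number as a block, and 0 to 36 with 1 library left out (0 without water replicate 3, where 1641 had an unadjusted p under 0.05); it was 57 to 72 under the other settings. Of the 99 pathway genes, 2 were called with limma-voom and 1 with robust empirical Bayes, and 0 under every other setting. Deviations of same-numbered libraries from their group means correlated at -0.04, 0.05 and -0.01. These values show no shared deviation and cannot tell whether the libraries were paired. With the replicate block the adjusted p of Cldn1 was 0.0793, and with no filter on low values it was 0.0956; the log2 fold change was -0.86 in both. Tjp1 changed sign with median-of-ratios scaling (-0.0078), without water replicate 2 (-0.0561) and without PS-MP replicate 1 (-0.0255); with 1 library left out it ran from -0.0561 to 0.0805. F11r did so without PS-MP replicate 2 (-0.0219, range -0.0219 to 0.1017) and Cldn5 without PS-MP replicate 3 (0.0239, range -0.1388 to 0.0239). The other 7 of the 9 genes kept their direction under all 14 alternatives, and Cldn2, Cldn3, Cldn12, Cldn14, Tjp1, Ocln, F11r and Cgn were called under none. Cldn14 rests on the fewest reads of the 9 genes, 44 to 70 a library.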
